A study of Mus musculus with 8 samples.

Results

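The unfolded protein response (UPR) genes described here were Hspa5 and 9 genes that belong to the same stress response in the endoplasmic reticulum (ER): Hsp90b1, Pdia4, Pdia6, Hyou1, Sdf2l1, Dnajb9, Xbp1, Ddit3 and Creld2. They were taken by gene symbol from the deposited colon and ileum tables, and made up 10 of the 40178 genes listed in at least 1 of the tables. All 10 were listed in both tables, and all 10 passed the filter on low counts in every comparison. Their gene identifiers, with version numbers, matched GENCODE release M21, where Hspa5 is ENSMUSG00000026864.13 at chr2:34771970-34777547 on the plus strand of GRCm38.

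The samples were intestinal epithelial cells released with EDTA from the colon and the ileum of 8-week-old mice on the C57BL/6 background. The WT group had the genotype DDX5(+/+), Vil1Cre(+), and the DDX5KO group the genotype DDX5(fl/fl), Vil1Cre(+), homozygous for a floxed Ddx5 allele. Ddx5 encodes an RNA helicase, and the Villin1 promoter directs Cre to the gut epithelium, so both genotypes carried Cre and differed in the floxed allele. There were 4 groups of 2 libraries. By the animal numbers in the table headers of the study, the same mice were used for the colon and the ileum. Ddx5 itself was checked first. It was at 769.8 and 705 counts per 1000000 (CPM) in the WT colon and at 367 and 354 in the DDX5KO colon, and at 699 and 699 CPM in the WT ileum against 339 and 326 in the DDX5KO ileum, so each library matched its label.

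The UPR keeps protein folding in the ER in balance with the load of new secretory and membrane proteins. Hspa5 encodes BiP, the Hsp70 chaperone of the ER lumen, which binds unfolded chains and also holds the stress sensors IRE1, PERK and ATF6 inactive until it is drawn away by unfolded protein. ATF6, cut by proteases in the Golgi, and XBP1, made from an mRNA that IRE1 splices, then turn on genes for chaperones and for ER-associated degradation, while PERK slows translation and favours ATF4, which acts on Ddit3 (CHOP). Secretory cells of the gut, the goblet and Paneth cells, make heavy use of the ER and depend on Xbp1. Gene counts show neither the splicing of Xbp1 nor the cutting of ATF6.

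ATF6 and XBP1 act through the ER stress response element (ERSE), CCAAT followed by 9 bases of any kind and then CCACG, an element first described in promoters of ER chaperones such as Hspa5 and Hsp90b1. RefSeq promoter windows of GRCm38.p6, from 250 bases before to 50 bases after the annotated start, were found for 9 of the 10 genes (Hyou1 was not among them). Searched on both strands, 4 of these 9 held the element, namely Hspa5, Hsp90b1 with 2 matches, Pdia6 and Creld2, against 0.119% of all 32851 promoter windows. The matches are shown because they are the stretch of sequence these genes share. Each is given 5′ to 3′ on the gene's own strand with 5 bases on either side, and the capitals mark the paired CCAAT and CCACG or, for the reverse orientation, CGTGG and ATTGG.

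Hspa5, chr2:34772020-34772048, plus strand: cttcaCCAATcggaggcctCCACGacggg

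Hsp90b1 upstream match, chr10:86705633-86705661, minus strand: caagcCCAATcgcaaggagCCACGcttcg

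Hsp90b1 downstream match, reverse orientation, chr10:86705528-86705556, minus strand: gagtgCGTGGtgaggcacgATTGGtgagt

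Pdia6, chr12:17266486-17266514, plus strand: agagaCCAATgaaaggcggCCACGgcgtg

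Creld2, reverse orientation, chr15:88819515-88819543, plus strand: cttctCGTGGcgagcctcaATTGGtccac

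The Hspa5 match began 65 bases upstream of its RefSeq start and the Pdia6 match 98 bases upstream. The Hsp90b1 matches began 212 and 107 bases upstream, and the Creld2 match 126 bases upstream. In GENCODE M21 the Hspa5 match lay in an untranslated exon of 1 of its 6 transcripts, Hspa5-201, which starts farther upstream, and the other matches lay outside annotated exons of their genes. The related elements ERSE-II (ATTGG, any base, CCACG), the UPR element TGACGTGG and the ATF4-type element TTGCATCA were in none of the 9 windows, and were in 0.037%, 0.676% and 0.895% of all windows. Absence from the window says only that these letters were not in it.

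Creld2 encodes a secreted, ER-resident protein that assists disulphide exchange, and its difference between genotypes in the ileum had the smallest p of the 10 genes. The 250 bases upstream of its start, chr15:88819396-88819645 on the plus strand, are given with the same capitals.

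Creld2 upstream region: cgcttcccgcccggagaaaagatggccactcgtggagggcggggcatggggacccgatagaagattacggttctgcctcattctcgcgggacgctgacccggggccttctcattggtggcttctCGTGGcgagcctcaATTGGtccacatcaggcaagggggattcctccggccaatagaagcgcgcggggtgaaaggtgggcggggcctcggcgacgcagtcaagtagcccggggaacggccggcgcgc

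**Figure D1:**
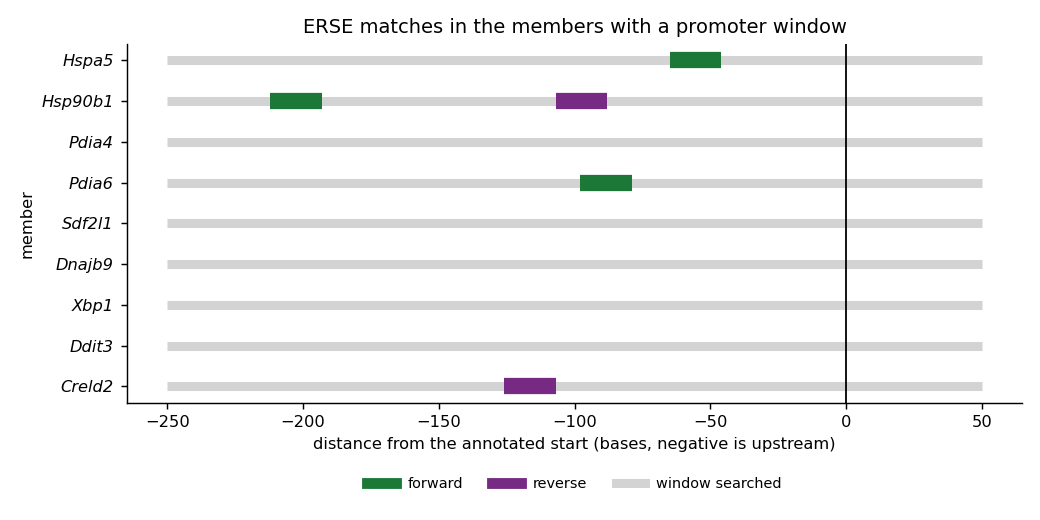
Positions of ERSE matches in the promoter windows of 9 of the 10 genes, as the distance in bases from the annotated start. Grey bars mark the window searched, green boxes the forward matches and purple boxes the reverse ones. The matches of Hspa5, Hsp90b1, Pdia6 and Creld2 began between 65 and 212 bases upstream of the start.

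Levels were compared between genes as CPM per kilobase of the deposited gene length, since longer transcripts collect more reads. In the WT colon Hspa5 (126 ± 24.4, mean ± SD of 2 libraries) and Hsp90b1, the ER member of the Hsp90 family (116 ± 15.1), stood highest, and these neighbours did not differ beyond their spread. Pdia4, Pdia6 and Xbp1 followed at 68.0 ± 9.40, 61.8 ± 10.2 and 57.6 ± 0.105 CPM per kilobase, where Pdia4 and Pdia6, and Pdia6 and Xbp1, did not differ beyond their spread. Sdf2l1, Creld2 and Hyou1 lay at 32.1 ± 6.50, 24.3 ± 4.89 and 21.5 ± 4.65, and Dnajb9 (11.8 ± 0.387) and Ddit3 (5.65 ± 0.625) were lowest.

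The order in the DDX5KO ileum was much the same, with 1 clear gap at the top. Hspa5 there reached 216 ± 20.2 CPM per kilobase and Hsp90b1 168 ± 11.9, whereas in the WT ileum Hsp90b1 (154 ± 0.109) and Hspa5 (143 ± 12.1) had been within their spread. Xbp1, at 66.8 ± 9.24 in the DDX5KO ileum, again could not be set apart from Pdia4 (70.4 ± 2.10) or Pdia6 (68.4 ± 3.46).

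Library totals ran from 11571061 to 22984283 counts, and the 10 genes together took between 24466 and 47759 of them. The second DDX5KO ileum library stood apart, with 19.5% of its counts in 3 repeat-like genes (Gm10800, Gm10801 and Gm21738) that took between 0.000956% and 4.04% in the other 7, so the main ileum values are also given without it. Epithelial markers (Epcam, Cdh1, Vil1, Krt8 and Krt20) summed to between 7834 and 14760 CPM, while 7 stromal markers summed to at most 14.9 CPM and 7 leukocyte markers to at most 73.4 CPM in any library. Ileum enterocyte markers summed to between 2495 and 5971 CPM in the ileum and at most 340 in the colon, so the tissues fitted their labels.

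The DDX5KO ileum was compared with the WT ileum. Creld2 and Hspa5 rose by the criterion of the study, a log2 fold change of at least 0.5 with an unadjusted p under 0.05. These were 2 of 10, where the same rule called 3.87% of the 14068 genes tested as higher and 3.48% as lower. No UPR gene was lower. None of the 10 passed an adjusted p of 0.05, which 0.697% of all genes did, and 5 of the 10 had an unadjusted p under 0.05, as did 12.3% of all genes tested. In these bulk samples a change in the number of cells of a type and a change in the RNA of each cell cannot be told apart.

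Hspa5 was at 640 and 567 CPM in the 2 WT ileum libraries and at 974 and 853 CPM in the 2 DDX5KO ileum libraries. The lower DDX5KO library was well above the higher WT library. The log2 fold change was 0.60 (SE 0.19, 95% interval 0.19 to 1.01), with an edgeR quasi-likelihood p of 0.00857 and an adjusted p of 0.215. Pair by pair of the replicate numbers the log2 differences were 0.61 and 0.59. Without the second DDX5KO ileum library the log2 fold change was 0.71.

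Creld2 was at 39.7 and 30.5 CPM in the WT ileum and at 60.9 and 49.1 CPM in the DDX5KO ileum. The groups again did not overlap, with log2 differences of 0.62 and 0.68 by replicate number. The fitted log2 fold change was 0.65 (SE 0.14, 95% interval 0.35 to 0.95), and the edgeR p was 0.000552, the rank 122 of 14068, with an adjusted p of 0.0634. Over the other settings that left out no library the adjusted p ran from 0.0407, with no filter on low counts, to 0.532. Without the second DDX5KO ileum library the log2 fold change was 0.81.

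Both calls leaned on single libraries. Without the first DDX5KO ileum library Hspa5 had a log2 fold change of 0.49 and Creld2 of 0.47. Both were under the fold limit of 0.5, Hspa5 narrowly, so neither met the criterion. Without the second WT ileum library they stood at 0.52 (edgeR unadjusted p of 0.0627) and 0.47 (p of 0.0659), and again neither was called.

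**Figure D2:**
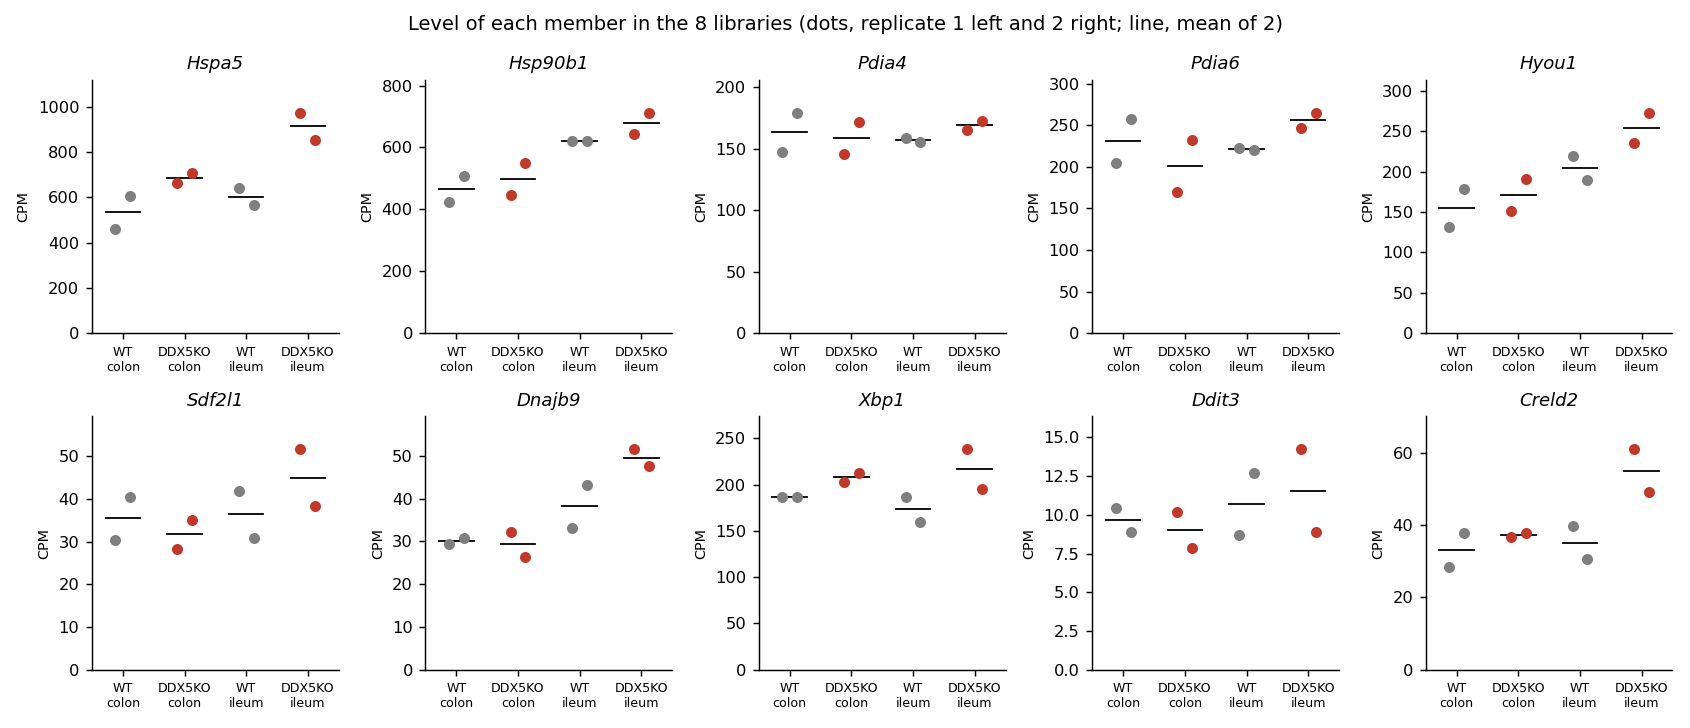
CPM of each of the 10 genes in the 8 libraries, by group on the horizontal axis. Dots are single libraries, grey for WT and red for DDX5KO, with replicate 1 on the left, and lines are means of 2. Hspa5 in the DDX5KO ileum, at 974 and 853 CPM, stood above its 6 other libraries, and so did Creld2 at 60.9 and 49.1 CPM.

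The partners of BiP in the ER lumen moved less. Hyou1, an Hsp110-type protein that exchanges nucleotide on BiP, was at 220 and 190 CPM in the WT ileum and at 236 and 273 CPM in the DDX5KO ileum. The groups did not overlap, but the log2 fold change of 0.32 (SE 0.16) had an edgeR p of 0.0705. Dnajb9 (ERdj4), a J-domain protein that directs BiP to misfolded clients and to IRE1, was at 33.1 and 43.2 CPM in WT and at 51.5 and 47.7 in DDX5KO. Its log2 fold change of 0.39 (SE 0.16, edgeR p of 0.0274, adjusted p = 0.329) stayed under the fold limit. Sdf2l1, which works with BiP and its J-domain partners, was at 42.0 and 30.8 CPM in WT against 51.6 and 38.3 in DDX5KO, so the groups overlapped (log2 fold change 0.31, edgeR p of 0.0468).

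The folding enzymes and the ER Hsp90 did not pass the test in the ileum. Hsp90b1 (GRP94) was at 621 and 620 CPM in the WT ileum and at 644 and 712 in the DDX5KO ileum, a log2 fold change of 0.13 with a 95% interval from -0.27 to 0.53. Pdia4, a protein disulphide isomerase, was at 159 and 156 CPM in WT against 165 and 172 in DDX5KO. Pdia6, another isomerase and a partner of BiP, was at 223 and 221 CPM against 247 and 265. All 3 had both DDX5KO libraries above both WT libraries, with log2 fold changes from 0.10 to 0.21 and intervals that took in 0.

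Among the transcription factors, Xbp1 was at 187 and 160 CPM in the WT ileum and at 238 and 196 CPM in the DDX5KO ileum, without overlap. The log2 fold change was 0.32 (SE 0.14, edgeR p of 0.0392, adjusted p = 0.374). Ddit3, the proapoptotic factor CHOP, had the lowest level and the widest spread, at 8.71 and 12.7 CPM in WT and 14.2 and 8.87 in DDX5KO, with a log2 fold change of 0.13 (95% interval -0.43 to 0.70). Its replicate numbers gave log2 differences of 0.71 and -0.51, so the pairs pointed in opposite directions.

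Counted together, 10 of 10 genes had a positive ileum log2 fold change, with a median of 0.31, where the median over all genes tested was -0.00457 and 49.1% were positive. In 8 of 10 both DDX5KO libraries lay above both WT libraries, against 18.7% of all genes tested. The 2 that overlapped were Sdf2l1 and Ddit3. The summed level of the 10 genes was 2172 and 2030 CPM in the WT ileum and 2682 and 2616 CPM in the DDX5KO ileum. The positive direction was not particular to these genes. Heat shock genes outside the ER, described below, had 9 of 10 positive ileum log2 fold changes, with a median of 0.30.

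**Figure D3:**
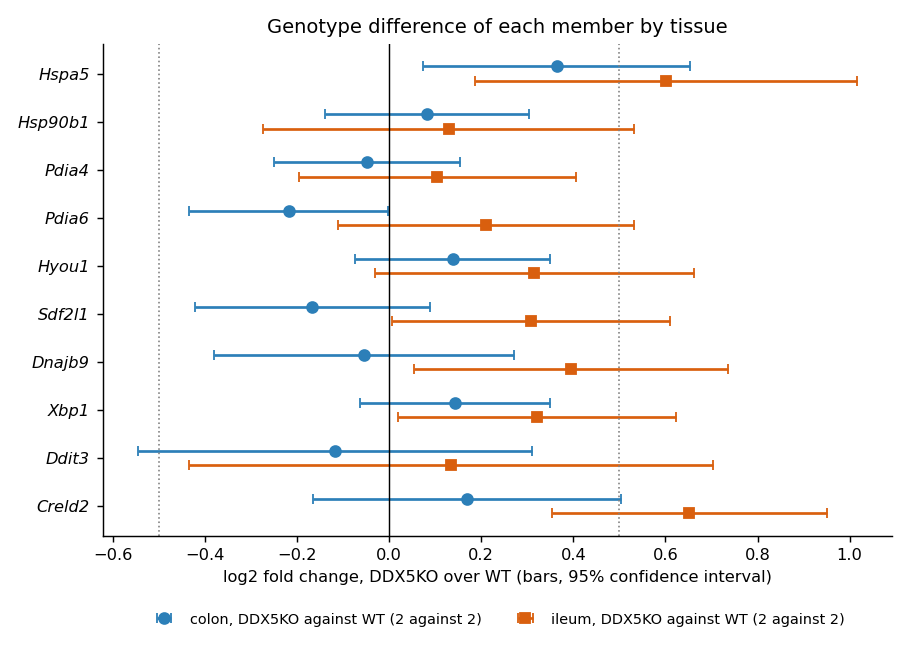
Log2 fold change of DDX5KO over WT for each of the 10 genes in colon (blue circles) and ileum (orange squares), with 95% confidence intervals from the edgeR fit of 2 against 2 libraries. Dotted lines mark log2 fold changes of 0.5 and -0.5. The ileum values of Creld2 (0.65) and Hspa5 (0.60) lie past the line, and no colon value does.

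The summed goblet cell markers were also higher in the DDX5KO ileum. The 7 markers summed to 28220 and 24290 CPM in the WT ileum and to 33830 and 29640 CPM in the DDX5KO ileum. Of the 7, Zg16 (log2 fold change 0.77) and Tff3 (0.51) met the criterion as higher, while Muc2 (0.15), Clca1 (0.10) and Agr2 (-0.13) did not, and none was at 0. Fcgbp, at 7654 and 5392 CPM in WT and 11067 and 7388 in DDX5KO, overlapped between genotypes and was not called. Spink4, at 1571 and 1463 CPM in WT and 1973 and 1982 in DDX5KO, did not overlap and was not called either. Positive log2 fold changes were 6 of 7 among the goblet markers, with a median of 0.39. The sums of the 7 Paneth cell markers overlapped, at 15160 and 10760 CPM in WT against 14180 and 16420 in DDX5KO. Of these 7, 6 had a positive log2 fold change, with a median of 0.39 over the 7, and 0 met the criterion. Among 6 plasma cell markers, Sdc1, which epithelium also expresses, made up most of the sum (164 to 168 CPM in the WT ileum and 193 and 145 in the DDX5KO ileum). Igha lay between 2.49 and 5.53 CPM and Jchain between 0.693 and 1.66 CPM in the ileum libraries, and the defining genes Tnfrsf17 and Mzb1 were at 0 in 1 library of each genotype. The part of goblet or Paneth cells in the UPR values was not tested.

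In the colon no UPR gene met the criterion, which called 3.04% of 15362 genes as higher and 3.67% as lower. The adjusted threshold was passed by 0% of genes in this tissue, and the smallest adjusted p was 0.0650, although 12% of the genes had an unadjusted p under 0.05. Of the 10 UPR genes, 2 were under that level, Hspa5 and Pdia6, in opposite directions. DESeq2 placed none of the 10 under an adjusted p of 0.05 either.

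Hspa5 was at 460.1 and 606 CPM in the WT colon and at 661 and 708 CPM in the DDX5KO colon. Both DDX5KO values lay above both WT values, and the log2 fold change was 0.36 (SE 0.11, 95% interval 0.07 to 0.65, edgeR p of 0.0234, adjusted p = 0.342). The WT pair was uneven, and without the second WT colon library the log2 fold change was 0.57 and met the criterion, while without the first it was 0.17. Pdia6 was at 204 and 258 CPM in WT and at 170 and 233 in DDX5KO, with a log2 fold change of -0.22 (SE 0.08, edgeR p of 0.0482) and overlapping groups.

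The other chaperones of the colon did not pass the test. Hsp90b1 was at 423 and 509 CPM in WT and 446 and 550 in DDX5KO, and Pdia4 at 147 and 179 against 146 and 171. Hyou1 was at 131 and 179 CPM against 151 and 191. In each of these the second library of a genotype was higher than the first, and the genotypes overlapped.

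The remaining genes did not pass either. Sdf2l1 was at 30.4 and 40.6 CPM in the WT colon and 28.3 and 35.2 in the DDX5KO colon, and Creld2 at 28.5 and 37.9 against 36.8 and 37.8. Dnajb9 (29.4 and 30.8 against 32.2 and 26.4 CPM) and Ddit3 (10.4 and 8.92 against 10.2 and 7.87 CPM) also overlapped. Xbp1, at 187 and 187 CPM in WT and 203 and 213 in DDX5KO, did not overlap, although its log2 fold change of 0.14 (SE 0.08) had a p of 0.136.

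Taking the colon set as a whole, 5 of 10 log2 fold changes were positive, with a median of 0.02, beside a median of -0.000422 over all genes and 49.9% positive. In 2 of 10, Hspa5 and Xbp1, both DDX5KO libraries lay above both WT libraries, against 23.8% of all genes tested. Goblet markers in the colon summed to 46390 and 51680 CPM in WT and to 27780 and 41420 in DDX5KO, lower rather than higher. Clca1 (log2 fold change -1.57) and Fcgbp (-0.61) met the criterion. Of the 7 goblet markers, 2 had a positive log2 fold change, with a median of -0.22 over the 7. Muc2 overlapped between genotypes, at 10664 and 13785 CPM in WT against 8819 and 19208 in DDX5KO. Zg16 also overlapped, at 1655 and 1241.5 CPM against 1802 and 1371. The 7 Paneth markers summed to 1395 and 1581 CPM against 219 and 428. Ang4 made up most of this sum, at 1310 and 1499 CPM in WT against 199 and 387 in DDX5KO. Lyz1, Mmp7, Defa24 and Defa30 lay at 2.09 CPM or less in every colon library.

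**Figure D4:**
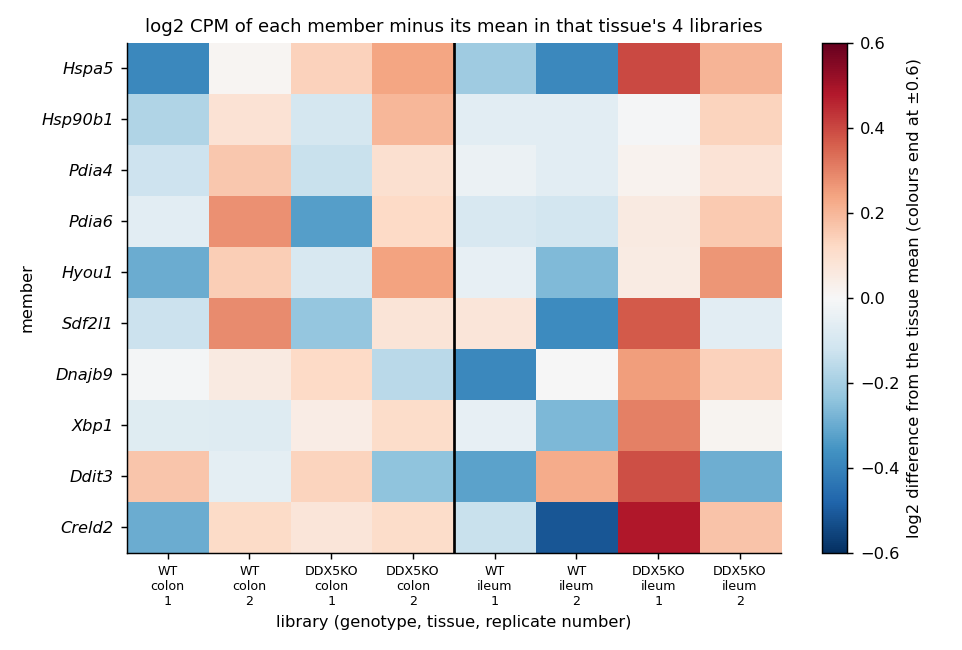
Log2 CPM of each gene in each library minus the mean of that gene over the 4 libraries of the tissue, in red above and blue below. Columns are the 8 libraries by genotype, tissue and replicate number. In the ileum the WT columns are mostly blue and the DDX5KO columns mostly red. In the colon 8 of 10 genes in WT, and 8 of 10 in DDX5KO, are higher in the second library, though not all are the same genes.

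The 2 libraries of a genotype also differed in the colon. In the WT colon 8 of 10 genes were higher in the second library than in the first, and in the DDX5KO colon also 8 of 10, whereas in the ileum the counts were 2 of 10 in WT and 4 of 10 in DDX5KO. The differences between the replicate libraries of the 10 genes correlated between genotypes at 0.767 in the colon and -0.16 in the ileum, beside 0.00559 and 0.24 over all genes tested. These are correlations across genes, which are not independent.

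A ratio of counts within a library does not depend on how libraries are scaled to each other. The count of Hspa5 per count of Hsp90b1 was 1.09 and 1.19 in the WT colon, 1.48 and 1.29 in the DDX5KO colon, 1.03 and 0.914 in the WT ileum and 1.51 and 1.20 in the DDX5KO ileum. Against Pdia6 it was 2.25 and 2.35 in the WT colon, 3.89 and 3.05 in the DDX5KO colon, 2.87 and 2.57 in the WT ileum and 3.94 and 3.22 in the DDX5KO ileum. BiP transcripts were thus higher relative to these partners in the DDX5KO libraries of both tissues, as they were relative to most other genes tested. Against Creld2 the ileum ratios overlapped, at 16.1 and 18.6 in WT and 16.0 and 17.4 in DDX5KO.

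In the colon the ratio of Hspa5 to the partner was above both WT libraries in both DDX5KO libraries for 8 of the 9 other genes, all but Ddit3. Over all other genes tested in the colon 55.4% gave such a ratio. In the ileum 6 of 9 did, beside 80.1% of all other genes, since Dnajb9, Ddit3 and Creld2 overlapped.

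**Figure D5:**
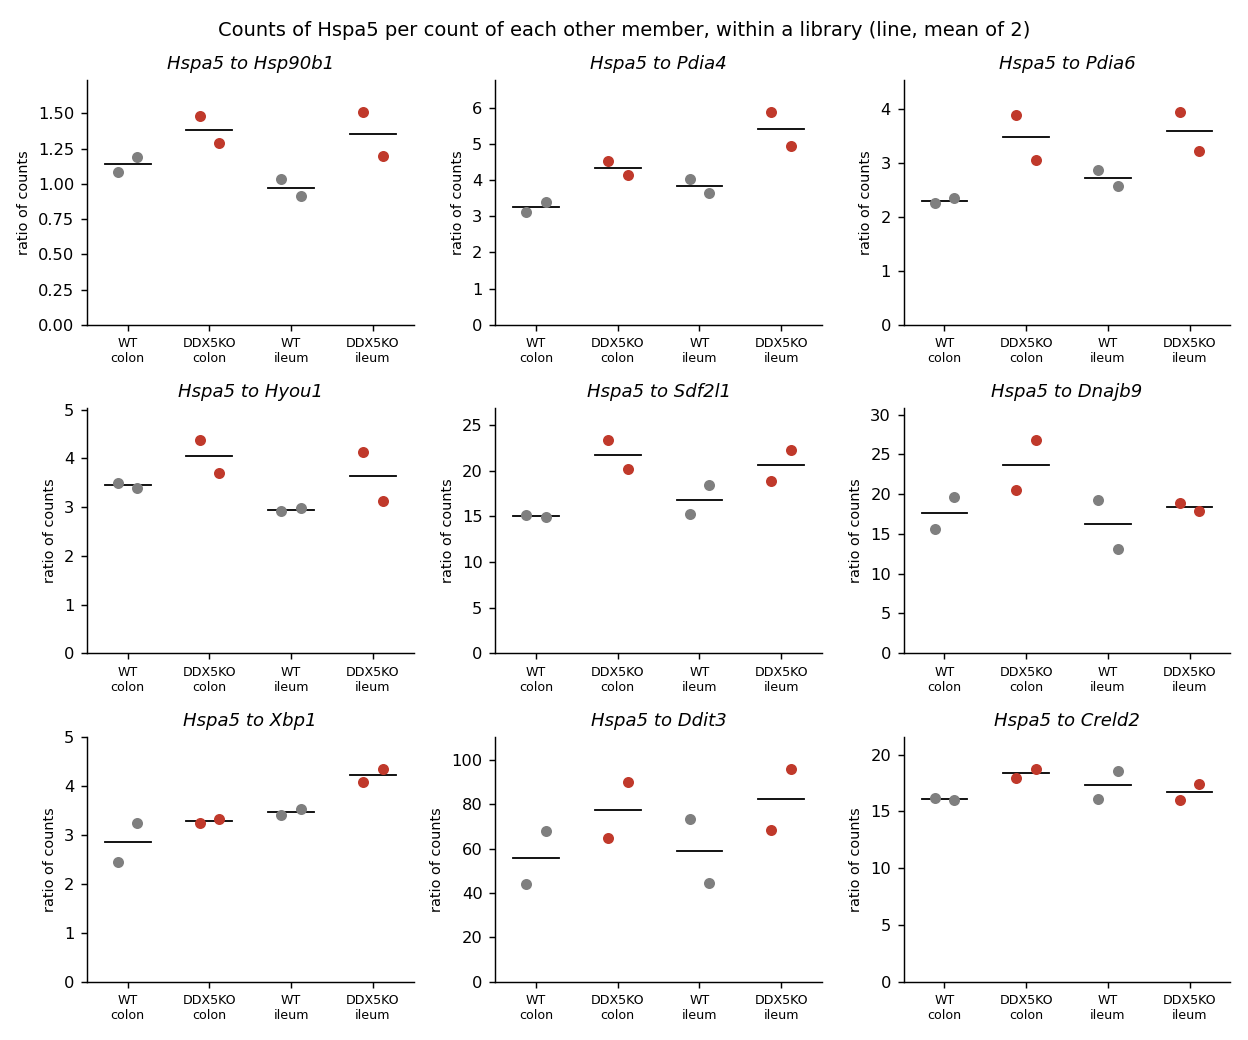
Counts of Hspa5 divided by counts of each of the other 9 genes in the same library, by group. Dots are single libraries, grey for WT and red for DDX5KO, and lines are means of 2. Against Hsp90b1 the DDX5KO ratios were 1.48 and 1.29 in the colon and 1.51 and 1.20 in the ileum, all above the WT ratios of 0.914 to 1.19.

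Whether the difference between genotypes itself differed between tissues was tested with all 8 libraries. None of the 10 genes passed in edgeR at an adjusted p of 0.05, which 0.0124% of 16178 genes did, or at an unadjusted p of 0.05, which 4.67% did, and DESeq2 placed none of the 10 under an adjusted p of 0.05. The smallest unadjusted p was 0.0897, for Dnajb9, with an ileum-minus-colon difference of 0.42 in log2 fold change (95% interval -0.08 to 0.92). With the mouse as a block it was 0.0398, with no adjusted p under 0.05. For Hspa5 the difference was 0.24 (95% interval -0.32 to 0.79) and for Creld2 0.48 (-0.12 to 1.07), so intervals this wide left room for a tissue difference as well as for none.

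Between tissues, the same mice were compared in ileum and colon. In WT no UPR gene passed an adjusted p of 0.05, where 17.4% of genes were higher and 16.8% lower in the ileum. Hsp90b1 came nearest, at 621 and 620 CPM in the ileum against 423 and 509 in the colon (log2 fold change 0.41, SE 0.16, adjusted p = 0.0787), and with the mouse as a block it passed, at an adjusted p of 0.0470.

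In DDX5KO mice 3 of 10 were higher in the ileum than in the colon, where 18% of genes were higher and 17.3% lower. Dnajb9 rose by 0.76 on the log2 scale (SE 0.16, adjusted p = 0.00613), Hyou1 by 0.57 (SE 0.18, adjusted p = 0.0414) and Creld2 by 0.56 (SE 0.18, adjusted p = 0.0444). With the mouse as a block Creld2 was no longer called (adjusted p = 0.0611) and Hsp90b1 was (adjusted p = 0.0362). Without the first DDX5KO library of the colon, and likewise without that of the ileum, Dnajb9 was the 1 gene of the 10 past the threshold, and Dnajb9 passed without each of the 8 libraries in turn. Since the genotype comparisons and these tissue comparisons use the same libraries, they are not independent of each other.

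Upstream of these genes, the sensors and the Golgi proteases that cut ATF6 gave no call between genotypes, 0 of 7 in either tissue. PERK, encoded by Eif2ak3, had the smallest p in the ileum, at 60.4 and 53.5 CPM in WT and 81.6 and 71.0 CPM in DDX5KO. Its log2 fold change of 0.42 (SE 0.13, edgeR p of 0.00872, adjusted p = 0.217) stayed under the fold limit. Leaving out the second DDX5KO or the first WT ileum library gave 0.53 and 0.51, past that limit. Leaving out the first DDX5KO or the second WT ileum library gave 0.31 and 0.34. Ern1, which encodes the widely expressed IRE1, was at 60.6 and 70.9 CPM against 54.9 and 78.7 in the ileum (log2 fold change 0.01). Its gut form Ern2, known from goblet cells, was at 67.8 and 57.4 CPM against 64.4 and 73.0, with a log2 fold change of 0.14. The ileum log2 fold changes of Atf6 (-0.10), Atf6b (0.10), Mbtps1 (-0.17) and Mbtps2 (0.10) also missed the test.

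In the colon the 7 log2 fold changes lay between -0.12 for Ern1 and 0.05 for Atf6b. The sensors differed between tissues instead. Ern2 was lower in the WT ileum than in the WT colon by a log2 fold change of -1.09 (adjusted p = 0.000241), from 131 and 136 CPM in the colon, and Atf6 was higher by 0.57 (adjusted p = 0.00214). In DDX5KO mice both passed in the same directions (-0.94 and 0.52), and Eif2ak3 also passed, at 0.37 with an adjusted p of 0.0370.

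ER-associated degradation, which returns misfolded proteins to the cytosol, was the only ER list used here with ileum calls past the adjusted threshold. Of 14 genes tested, 2 rose and 0 fell, both past the adjusted threshold, and 13 of 14 log2 fold changes were positive with a median of 0.19. Syvn1, the ubiquitin ligase HRD1, was at 43.4 and 44.3 CPM in the WT ileum and at 67.1 and 83.3 in the DDX5KO ileum, a log2 fold change of 0.77 (SE 0.14, adjusted p = 0.0359). Syvn1 met the criterion also without each of the 8 libraries in turn, with log2 fold changes from 0.63 to 0.92, while its adjusted p ran from 0.00402 to 0.338 over the other settings that left out no library. Syvn1 carried an ERSE in its promoter window, as did the called Hspa5 and Creld2. So did Hsp90b1, Pdia6, Calr, Canx, Dnajc3, Ero1b (deposited as Ero1lb) and Derl3, none of which was called in the ileum. A link between the element and the calls was not tested.

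Herpud1, a scaffold of the same ligase, was at 73.8 and 61.3 CPM in the WT ileum and at 160.0 and 89.4 in the DDX5KO ileum. The DDX5KO pair was uneven, and the log2 fold change of 0.84 (SE 0.16, adjusted p = 0.0490) became 0.39 (edgeR p of 0.0922) without the first DDX5KO ileum library. Without the second WT ileum library it was 0.76 with a p of 0.0668, and over the other settings that left out no library the adjusted p ran from 0.00112 to 0.560. In the colon 0 of 13 tested genes of this group were called, with Syvn1 at 0.13 and Herpud1 at 0.20 on the log2 scale, and the median was 0.10.

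Of 20 other ER chaperones and folding enzymes, 0 were called in either tissue, with 17 of 20 log2 fold changes positive in the ileum (median 0.08) and 5 of 20 in the colon (median -0.09). Manf, a BiP-binding secreted factor, came nearest in the ileum, at 93.3 and 77.2 CPM in WT and 130.1 and 109.6 in DDX5KO (log2 fold change 0.49, SE 0.14, adjusted p = 0.155). It met the criterion with RLE size factors and with DESeq2 with the replicate block, at 0.50 in both, and without the first WT or the second DDX5KO ileum library (0.63 in both). Genes for translocation into the ER and removal of signal peptides were likewise not called, 0 of 16 in either tissue, with a median of 0.05 in the ileum and -0.12 in the colon.

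In the PERK and ATF4 arm, 2 of 18 genes rose in the ileum and 0 fell, none past the adjusted threshold. Positive log2 fold changes were 16 of 18 in the ileum (median 0.20) and 4 of 17 in the colon (median -0.235). Cebpb, a transcription factor that pairs with CHOP, was at 7.93 and 8.24 CPM in WT and 21.7 and 12.2 in DDX5KO (log2 fold change 1.05, SE 0.22, adjusted p = 0.0686), and was not called without the first DDX5KO ileum library (0.58, edgeR p of 0.238) or without either WT ileum library. Chac1, which degrades glutathione and is a target of ATF4 and CHOP, rose from 2.21 and 2.29 CPM to 4.30 and 4.17 CPM (log2 fold change 0.92, SE 0.30, adjusted p = 0.242), and was not called by DESeq2 with the replicate block (unadjusted DESeq2 p of 0.11). Those levels rested on 33 to 48 counts a library. In the colon 1 of 17 fell, the cystine transporter Slc7a11 (log2 fold change -1.15, SE 0.21, adjusted p = 0.260), and Chac1 stood at -0.45 and Atf4 itself at -0.31 without being called.

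Heat shock genes outside the ER, among them the mitochondrial chaperonins Hspd1 and Hspe1, served as the nearest other group, since they answer to unfolded protein in other compartments. In the ileum 9 of 10 log2 fold changes were positive (median 0.30), and in the colon 7 of 10 (median 0.14). Of 10, 2 were called as higher in each tissue, Hspa8 and Hsph1, and Hspa1a was called as lower in the colon with the replicate block but not without it (edgeR p of 0.525), with log2 fold changes from -2.86 to 1.38 when 1 colon library was left out. Hspa8, the constitutive cytosolic relative of Hspa5, was at 908 and 1137 CPM in the WT colon against 1620.3 and 1493 in the DDX5KO colon, and at 869 and 944 against 1507 and 1342 CPM in the ileum (log2 fold changes 0.60 and 0.65). Hsph1 followed the replicate number in all 4 groups, at 19.7 and 69.8 CPM in the WT colon for example, so its ileum log2 fold change of 1.28 (adjusted p = 0.0303) ran from 0.52 to 2.07 when 1 library was left out, and its colon value of 0.73 from -0.09 to 1.74. Hspa1a has a near-identical neighbour in Hspa1b, so its counts are uncertain.

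The wider set of genes with an ERSE in the promoter window was also read in both tissues. Of 37 such gene symbols, 17 were tested in the ileum, of which Creld2, Hspa5 and Syvn1 were called as higher and Acacb and Xlr3b as lower, with a median log2 fold change of 0.13. With the 4 UPR genes left out, the 13 others had a median of 0.07 and 1 was called as higher. In the colon 15 were tested, 0 were called as higher and 1, Xlr3b, as lower. Promoters were matched to the deposited genes by symbol, so Ero1b, deposited as Ero1lb, was left out of these counts and medians. Ero1lb was at 19.4 and 27.4 CPM in the WT ileum and at 18.1 and 21.7 in the DDX5KO ileum. It was not called in either tissue.

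Within each tissue the UPR genes varied together to different degrees. Over the 8 libraries, with log2 CPM centred on the mean of each tissue, Hspa5 correlated most with Creld2 (Pearson r = 0.946) and Xbp1 (0.863), followed by Hyou1 (0.779), Hsp90b1 (0.616), Sdf2l1 (0.578), Pdia4 (0.498), Dnajb9 (0.471) and Pdia6 (0.324), and not with Ddit3 (-0.0504). The value was 0.930 between Pdia4 and Pdia6 and 0.927 between Hsp90b1 and Hyou1. Of the 45 pairs, 38 were positive, with a median of 0.495. The points share mice, libraries and the split by genotype, so these values are descriptions.

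By the same measure, among 13100 protein-coding genes whose median r with Hspa5 was 0.00702, the 8 outside the set most like it were Tubb6 (0.980), Spef1 (0.976), Isoc2b (0.974), Taf6 (0.973), 1700017B05Rik (0.972), Mmaa (0.971), Manf (0.968) and Dnah10 (0.963). Manf is the only ER stress gene of the lists used here among these 8. Creld2 held rank 24 and Xbp1 rank 229.

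Some of the 10 transcripts share sequence with other genes, which could affect the counts of uniquely placed reads. Of all 50-base words in the GENCODE M21 transcripts of Hsp90b1, 9.76% also occurred in transcripts of other genes, mostly 1810014B01Rik. For Dnajb9 the share was 5.50%, all with Gm6568, and for Ddit3 1.11%, with Mars. GENCODE M21 also holds another gene named Ddit3, at chr10:127290829-127293753 on the plus strand. Words were pooled by gene name, so any shared with that entry are not in the 1.11%. Hyou1 (0.218%) and Pdia6 (0.027%) shared little, and Hspa5, Pdia4, Sdf2l1, Xbp1 and Creld2 shared none.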

How the data were processed

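Ribodepleted, stranded RNA libraries were sequenced as paired reads. Per the labels and the study's methods, the authors aligned to mm10 with STAR 2.6.1a, counted unique exonic reads with featureCounts on GENCODE M19 and ran DESeq2 1.18.1. The deposited columns used here were the raw counts per gene. The deposited normalized signal (counts over the authors' DESeq2 size factor) was not used, nor were the authors' comparison columns, which hold log2 fold changes, test scores and p-values of DDX5KO against WT. No column belonged to another sample.

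Counts were normalized by TMM over 8 libraries for the printed CPM, without a pseudocount. Genotype was tested in each tissue with edgeR 4.0.16 (R 4.3.3) quasi-likelihood fits on 4 libraries, filterByExpr at a minimum count of 10 and the replicate number as a block, since the study's model had a harvest term. A call was the study's criterion, unadjusted p under 0.05 together with a log2 change of 0.5 or more either way, with Benjamini-Hochberg adjusted p-values over all genes beside it. Tissue comparisons and the tissue-by-genotype term used all 8 libraries without a block, at an adjusted p of 0.05. The SE of a log2 fold change was its size over the root of the F statistic. Exact permutation of 2 against 2 libraries cannot go below 0.333, so none was used. The scripts were tested on simulated data. Library totals were 11571061 to 22984283 counts; the replicate number of 2 sets the precision.

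Promoter sequences came from RefSeq (GRCm38.p6) and positions from GENCODE M21 (GRCm38); motif and 50-base word searches were run in Python 3.11.15. Alternatives were the fit without the block, DESeq2 1.42.0, RLE size factors, no filter, all libraries in 1 fit, and each library left out in the 8-library fit without a block. Removing 3 repeat-like genes was added after the data were seen. The members and lists were chosen with earlier results of these data known. Named genes were the 10 members, Ddx5, the sensors and proteases, called genes of the other lists (up to 4 a list and tissue) and the 8 genes most correlated with Hspa5. Atf4, Acacb, Xlr3b, the uncalled values given beside calls and the cell type markers with values were named after their values were seen.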

Additional observations from a re-analysis of the deposited data

How the results depend on the processing

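The count of UPR genes called in the ileum was 2 in each setting that kept all 4 ileum libraries, and ran from 0 to 2 when 1 library was left out, at 1 without the second WT ileum library (Dnajb9 alone) and at 0 without the first DDX5KO ileum library. In the colon it was 0 throughout, and ran from 0 to 1 with 1 library left out, Hspa5 being called without the second WT colon library. The tissue-by-genotype count was 0 in every setting run. The replicate numbers are not known to mark litters, and without the replicate block Hspa5 had a log2 fold change of 0.60 (edgeR p of 0.0159) in the ileum and 0.35 (p of 0.0676) in the colon, and Creld2 0.65 (p of 0.0101) in the ileum, with the same calls. Deviations by replicate number correlated at 0.00559 over all colon genes and 0.24 over all ileum genes. Against the WT colon, the WT ileum had 1 gene higher, Hsp90b1, with the mouse as a replicate block and 1 with DESeq2. In DDX5KO mice DESeq2 called 5, and leaving out 1 library gave 1 to 4. Removing the 3 repeat-like genes, chosen after seeing the data, left 2 calls in the ileum. Genotype log2 fold changes of the 10 genes turned sign only with a library left out, for genes that were not called: in the colon Hsp90b1 ran from -0.067 to 0.24, Pdia4 from -0.18 to 0.11, Pdia6 from -0.45 to 0.0061, Hyou1 from -0.069 to 0.38, Sdf2l1 from -0.36 to 0.061, Dnajb9 from -0.19 to 0.10, Ddit3 from -0.30 to 0.075 and Creld2 from -0.029 to 0.39 on the log2 scale, and in the ileum Ddit3 from -0.27 to 0.44. The cause of these shifts was not tested. With a library left out, the lone sample of its group was assumed to vary like the other groups. Ddit3, at 11.6 CPM or less in every group mean, is the gene where depth limits precision most.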
